A study of Mus musculus with 12 samples.

Results

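Il21r, Ccr7, Ptger4 and Jak2 are 3 immune receptor genes and 1 kinase gene, taken by symbol from a table of 760 genes. They were chosen by measured values of these samples, namely the change with diet in their log2 difference between 2 sorted myeloid cell populations. All 4 were among the 594 genes with values high enough to be tested. From an age of 3 weeks, female mice of the FVB/N strain received either low-fat chow (2920X) or high-fat chow (58Y1), and glands were taken after 16 weeks. Sorting of live CD45+ mammary cells that carried the myeloid protein CD11b gave CD34+ cells, which the labels call myeloid progenitors, and CD34- cells, which they call monocytes and macrophages. Their RNA was amplified and counted with barcoded probes of the Fibrosis V2 panel (NanoString nCounter). The 4 groups were low-fat CD34-, low-fat CD34+, high-fat CD34- and high-fat CD34+, with 3 samples each. All mice were of 1 strain and sex, and the low-fat groups were the controls of the diet comparison.

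Interleukin-21, made by T helper cells, acts on lymphocytes through the receptor encoded by Il21r, which works with the common gamma chain and signals through Janus kinases and Stat3. Ccr7 encodes the receptor for the chemokines Ccl19 and Ccl21, which guide mature dendritic cells and naive lymphocytes to lymph nodes. Ptger4 encodes EP4, a receptor for prostaglandin E2 that raises cyclic AMP and restrains cytokine production by macrophages. Jak2 encodes a Janus kinase that carries signals from the receptors of interferon gamma, granulocyte-macrophage colony-stimulating factor, interleukin-12, leptin and prolactin.

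On mouse assembly GRCm38.p6, RefSeq places Il21r on chromosome 7 at 125603252 to 125634397, Ccr7 on chromosome 11 at 99144199 to 99155077, Ptger4 on chromosome 15 at 5233399 to 5244187 and Jak2 on chromosome 19 at 29251803 to 29313095. RefSeq promoter windows matched Il21r, Ptger4 and Jak2. They are shown because these windows differ in base composition. Over the samples, r of the log2 levels was 0.79 for Ptger4 and Jak2, and 0.50 and 0.30 for Il21r with each. These genes were chosen on the same contrast, and whether base composition had a part in their patterns was not tested. Each line gives bases upstream of the transcript start, 5′ to 3′ on the gene's strand, with every CpG in capitals. The lines are chr15:5244188-5244437 on the minus strand for Ptger4, chr19:29251553-29251802 on the plus strand for Jak2 and chr7:125603179-125603251 on the plus strand for Il21r, where the RefSeq gene record begins before the window ends, which left 73 bases to show.
Ptger4: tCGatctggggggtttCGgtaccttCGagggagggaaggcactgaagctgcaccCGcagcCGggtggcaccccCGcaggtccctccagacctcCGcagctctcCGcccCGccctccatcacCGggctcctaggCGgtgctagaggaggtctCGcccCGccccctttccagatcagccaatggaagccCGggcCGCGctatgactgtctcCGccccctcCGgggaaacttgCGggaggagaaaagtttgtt
Jak2: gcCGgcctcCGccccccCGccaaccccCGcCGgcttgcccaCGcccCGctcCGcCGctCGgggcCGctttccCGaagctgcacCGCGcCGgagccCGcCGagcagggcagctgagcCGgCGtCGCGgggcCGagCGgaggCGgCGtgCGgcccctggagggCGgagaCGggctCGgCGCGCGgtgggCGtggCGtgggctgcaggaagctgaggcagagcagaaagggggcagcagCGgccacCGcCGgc
Il21r: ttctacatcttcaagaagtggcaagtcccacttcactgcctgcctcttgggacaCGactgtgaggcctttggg

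Over the 250 bases upstream of the start, the Jak2 window was 80.8% G and C with 37 CpGs, and 2.2% of 32851 mouse promoter windows held at least as many. The Ptger4 window was 66.8% G and C with 19 CpGs, a number that 19.7% of windows reached. The Il21r window was 55.6% G and C with 4 CpGs, against medians of 52.4% and 6 CpGs over all windows. The STAT motif TTCNNNGAA, the interferon response element ISRE, the cyclic AMP response motif TGACGTCA and the NF-kB motif were searched on both strands. They were in 7.02%, 2.98%, 1.55% and 3.9% of all windows, and these letters were found 0 times in the windows of Il21r, Ptger4 and Jak2.

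Recovered counts summed to between 78316 and 780070 per sample, with the shallowest library being low-fat CD34- replicate 3. There the counts were 175 for Il21r, 448 for Ccr7, 138 for Ptger4 and 237 for Jak2, and in the other 11 samples they were 155 or more for each gene. These counts cover counting error alone, as amplified molecules are not independent. The sort was partly visible in Cd34 RNA, which was scarce, at 2 to 58 counts in CD34- samples and 15 to 130 in CD34+ samples, with overlapping levels on the high-fat diet. Ptprc, the gene of CD45, was at 10.75 or more on the log2 scale in every sample. Of 11 macrophage markers 4 were on the panel, and averaged over the diets limma called 3 of them (Cd14, Cd163 and Cd68) lower in CD34- cells, where 10.6% of all genes were called lower. It called 9 of 9 NK cell markers and 3 of 3 B cell markers higher there, against 8.42% of all genes. Also called higher there were 6 of 9 T cell, 3 of 4 neutrophil, 1 of 3 mast cell and 1 of 3 endothelial markers. The other 2 mast cell and 2 endothelial markers tested were lower in CD34- cells, without a call. The median differences of these lists were -0.95 for mast cell and -0.06 for endothelial markers. CD34+ cells had the higher levels of fibroblast markers, with 5 of 6 called lower in CD34- cells and a median difference of -2.00. Of the fat cell markers 1 of 4 was called lower in CD34- cells. In sorted bulk RNA, fewer cells of a type and less RNA per cell cannot be told apart. An added fit left out the shallowest library together with replicate 2 of high-fat CD34+, whose matrix gene levels were high, and results that this changed are given with it.

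Il21r was lowest in the CD34+ cells of mice on the high-fat diet. On the log2 scale of the normalized values, high-fat CD34+ replicates 1, 2 and 3 were at 7.28, 7.57 and 6.72. Low-fat CD34+ replicates were at 9.62, 9.05 and 9.04. All 3 high-fat values lay below all 3 low-fat values in these cells, a separation that 19.9% of genes had there, with means of 7.19 ± 0.43 and 9.24 ± 0.33 (SD, n = 3). In CD34- cells the low-fat replicates were at 8.41, 8.03 and 9.30, and the high-fat replicates at 8.70, 9.26 and 8.23. The diets overlapped there, with means of 8.58 ± 0.65 and 8.73 ± 0.52. The highest low-fat CD34- value came from the shallowest library, where 175 counts gave an exact 95% Poisson interval of 9.08 to 9.51.

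The order of Il21r levels from the lowest was high-fat CD34+, low-fat CD34-, high-fat CD34- and low-fat CD34+. The lowest group lay apart from the next by 1.39 on the log2 scale with no overlap, and the other 3 groups overlapped with their neighbours. Populations did not overlap on the high-fat diet for 31.8% of all genes. As a description of the contrast that chose the gene, CD34- minus CD34+ cells differed by -0.65 ± 0.37 (SE) on the low-fat diet and by 1.54 ± 0.37 on the high-fat diet. Without the shallowest library and high-fat CD34+ replicate 2, these were -1.01 ± 0.34 and 1.73 ± 0.34. In pairs 1, 2 and 3, the samples of the same number and diet, the difference was -1.20, -1.01 and 0.26 on the low-fat diet and 1.42, 1.69 and 1.51 on the high-fat diet. Thus 2 of 3 low-fat pairs were lower in CD34- cells and 3 of 3 high-fat pairs were higher. The high-fat minus low-fat difference was -2.05 ± 0.37 in CD34+ cells and 0.15 ± 0.37 in CD34- cells, where its sign turned (-0.17) with each sample re-centred on its median and (-0.32) with quantile normalization, and which was 0.51 ± 0.34 without those 2 libraries.

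**Figure D1:**
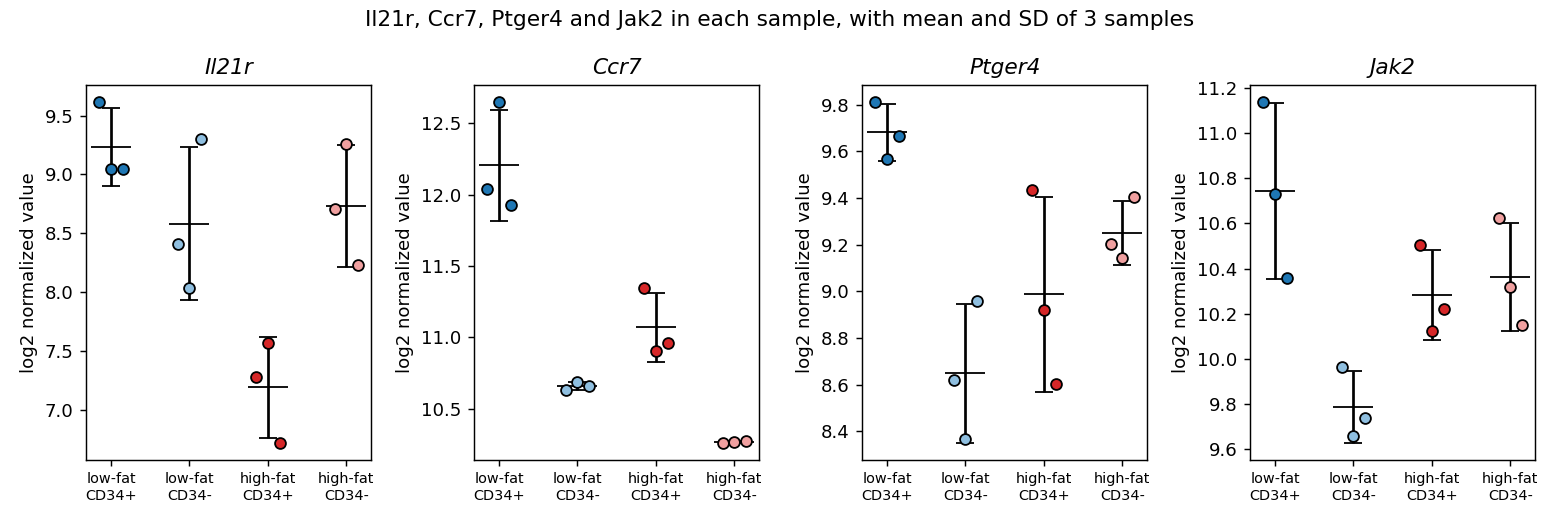
The log2 normalized value of each gene (vertical axis, a separate scale per panel) is plotted for every sample of the 4 groups, with replicates 1 to 3 from left to right, a wide bar for the mean and whiskers for the SD of 3 samples. Il21r is lowest in high-fat CD34+ cells, at 6.72 to 7.57, and Ccr7 is highest in low-fat CD34+ cells, at 11.93 to 12.65.

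Ccr7 levels of CD34+ cells lay above those of CD34- cells on both diets, and low-fat levels above high-fat levels in both populations. Low-fat CD34+ replicates 1, 2 and 3 were at 12.04, 12.65 and 11.93 on the log2 scale, and low-fat CD34- replicates at 10.63, 10.69 and 10.66. High-fat CD34+ replicates were at 11.35, 10.91 and 10.96, and high-fat CD34- replicates at 10.26, 10.27 and 10.27. No 2 of the 4 groups overlapped. Of all genes, 25.1% and 31.8% had populations that did not overlap on the low-fat and high-fat diet. Diets did not overlap for 19.9% of all genes in CD34+ cells and for 29% in CD34- cells. From the lowest, the order was high-fat CD34- (10.27 ± 0.005 SD, n = 3), low-fat CD34- (10.66 ± 0.03), high-fat CD34+ (11.07 ± 0.24) and low-fat CD34+ (12.20 ± 0.39).

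Averaged over the diets, a contrast orthogonal to the one that chose the gene, Ccr7 was 2.26-fold lower in CD34- cells (log2 -1.18 ± 0.15 SE, n = 3 per group, limma adjusted p = 0.000256). It was lower in 6 of 6 pairs, and 27.4% of all genes had 1 direction in all pairs. Ccr7 was the 1 of the 4 genes to pass this test, in which 19% of the 594 genes passed, 8.42% higher and 10.6% lower. Averaged over the populations, Ccr7 was 1.70-fold lower on the high-fat diet (-0.76 ± 0.15, limma adjusted p = 0.00553), and with mouse as a random block the adjusted p was 0.031. Mouse stands here and below for the replicate number within a diet, because the labels do not say which sample came from which mouse. By this number a shared mouse and shared processing cannot be told apart. The SE of Ccr7 rests on unusually even values. In high-fat CD34- cells its SD of 0.005 was the lowest of the 594 genes and below the 0.04 that counting alone would give for 835 to 1861 counts. With each sample re-centred on its median, the SD there was 0.09, and the averaged differences were -1.29 ± 0.22 (limma adjusted p = 0.00109) and -0.91 ± 0.22 (adjusted p = 0.0217).

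As a description, the CD34- minus CD34+ difference of Ccr7 was -1.55 ± 0.22 (SE) on the low-fat diet and -0.80 ± 0.22 on the high-fat diet. In pairs 1, 2 and 3 it was -1.41, -1.96 and -1.27 on the low-fat diet and -1.08, -0.64 and -0.69 on the high-fat diet. The direction was the same in all pairs, and the size was smaller in each high-fat pair than in each low-fat pair. The high-fat minus low-fat difference was -1.13 ± 0.22 in CD34+ and -0.39 ± 0.22 in CD34- cells. With re-centring the latter became -0.71 ± 0.31.

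Ptger4 was highest in low-fat CD34+ cells. The low-fat CD34+ replicates 1, 2 and 3 were at 9.81, 9.57 and 9.67 on the log2 scale, and the low-fat CD34- replicates at 8.62, 8.37 and 8.96. On the high-fat diet the CD34+ replicates were at 9.43, 8.92 and 8.60, and the CD34- replicates at 9.20, 9.14 and 9.40. The populations did not overlap on the low-fat diet and overlapped on the high-fat diet, and within each population the diets did not overlap. Such separations were common, as 25.1% of all genes had them between the populations on the low-fat diet. Between the diets, 19.9% of all genes had them in CD34+ cells and 29% in CD34- cells. From the lowest, the group means were 8.65 ± 0.30 (SD, n = 3) in low-fat CD34-, 8.99 ± 0.42 in high-fat CD34+, 9.25 ± 0.14 in high-fat CD34- and 9.68 ± 0.12 in low-fat CD34+ cells. The first 3 of these overlapped with their neighbours, and low-fat CD34+ cells lay above the rest.

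The CD34- minus CD34+ difference of Ptger4 was -1.04 ± 0.25 (SE) on the low-fat diet and 0.26 ± 0.25 on the high-fat diet, where it became -0.02 with re-centring and 0.08 with quantile normalization. In pairs 1, 2 and 3 it was -1.19, -1.20 and -0.71 on the low-fat diet and -0.23, 0.22 and 0.80 on the high-fat diet. High-fat minus low-fat, Ptger4 differed by -0.70 ± 0.25 in CD34+ and by 0.60 ± 0.25 in CD34- cells, and in the latter by 0.28 ± 0.24 with re-centring and 0.19 ± 0.20 with quantile normalization. Averaged over the diets, the population difference was -0.39 ± 0.17 (SE, n = 3 per group) with 4 of 6 pairs lower, and it did not pass (limma adjusted p = 0.147). With mouse as a random block it passed at limma adjusted p = 0.047, and with re-centring at -0.50 ± 0.17 (adjusted p = 0.0473). It did not pass with quantile normalization (-0.38 ± 0.14, limma adjusted p = 0.0773). Averaged over the populations, the diet difference was -0.05 ± 0.17 (limma adjusted p = 0.927), as the 2 populations differed in opposite directions.

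Jak2 resembled Ptger4, with its highest values in low-fat CD34+ cells and its lowest in low-fat CD34- cells. Low-fat CD34+ replicates 1, 2 and 3 were at 11.14, 10.73 and 10.36 on the log2 scale, and low-fat CD34- replicates at 9.97, 9.66 and 9.74. High-fat CD34+ replicates were at 10.51, 10.12 and 10.22, and high-fat CD34- replicates at 10.62, 10.32 and 10.15. Low-fat CD34- cells lay below all other groups, and the other 3 groups overlapped with their neighbours in the order high-fat CD34+, high-fat CD34- and low-fat CD34+. The means from the lowest were 9.79 ± 0.16 (SD, n = 3), 10.28 ± 0.20, 10.36 ± 0.24 and 10.74 ± 0.39. Populations did not overlap on the low-fat diet for 25.1% of all genes, and diets did not overlap in CD34- cells for 29%.

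The CD34- minus CD34+ difference of Jak2 was -0.95 ± 0.23 (SE) on the low-fat diet and 0.08 ± 0.23 on the high-fat diet, where it became -0.20 with re-centring and was near 0 without the 2 doubted libraries. In pairs 1, 2 and 3 it was -1.17, -1.07 and -0.62 on the low-fat diet and 0.12, 0.19 and -0.07 on the high-fat diet. High-fat minus low-fat, Jak2 differed by -0.46 ± 0.23 in CD34+ and by 0.57 ± 0.23 in CD34- cells, the latter by 0.26 ± 0.31 with re-centring and 0.10 ± 0.23 with quantile normalization, which gave -0.80 ± 0.23 in CD34+ cells. Averaged over the diets, Jak2 differed between the populations by -0.44 ± 0.17 (SE, n = 3 per group), with 4 of 6 pairs lower (limma adjusted p = 0.0827). With mouse as a random block it passed (limma adjusted p = 0.0113), in a fit where 33.8% of genes passed. It did not pass with re-centring (-0.55 ± 0.22, limma adjusted p = 0.093) or quantile normalization (-0.28 ± 0.16, adjusted p = 0.269). The diet difference averaged over the populations was 0.06 ± 0.17 (limma adjusted p = 0.909), and -0.35 ± 0.16 (adjusted p = 0.19) with quantile normalization.

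Il21r, averaged over the populations, was 1.93-fold lower on the high-fat diet (log2 -0.95 ± 0.26 SE, n = 3 per group, limma adjusted p = 0.0293). The 2 populations contributed unequally, since the CD34- values overlapped. Il21r and Ccr7 were the 2 of the 4 genes to pass this test, in which 10.9% of the 594 genes passed. They were also the 2 genes of 594 that were called lower on the high-fat diet (0.337%), against 63 called higher (10.6%), and the median of all genes was 0.12. With each sample re-centred, 34 genes were higher and 6 lower. With quantile normalization 32 were higher and 13 lower. Il21r passed in both fits, at -1.10 ± 0.22 (limma adjusted p = 0.00765) with re-centring and -1.16 ± 0.22 (adjusted p = 0.00965) with quantile normalization. The call for Il21r ended with mouse as a random block (limma adjusted p = 0.0995), while Ccr7 passed, in a fit where 5.22% of genes passed. It also ended without any one of high-fat CD34- replicates 1 and 3, high-fat CD34+ replicates 1 and 3, and low-fat CD34+ replicates 1 and 2 (limma adjusted p of 0.0719, 0.0873, 0.0544, 0.0667, 0.0727 and 0.0537). Without high-fat CD34+ replicate 2 and the shallowest library the adjusted p was 0.0306. Among all alternatives, the diet call for Il21r held in 13 and ended in 7. Averaged over the diets, Il21r differed by 0.44 ± 0.26 (limma adjusted p = 0.27), with 4 of 6 pairs higher in CD34- cells.

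**Figure D2:**
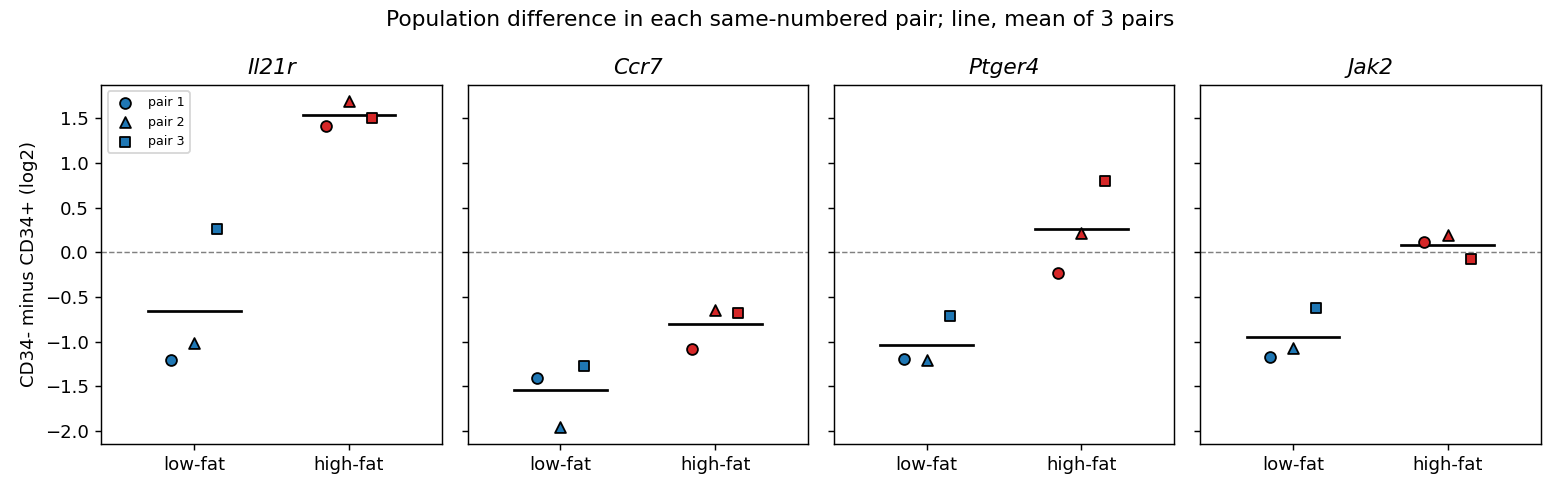
The log2 difference of CD34- minus CD34+ cells (vertical axis) is plotted for each pair of samples with the same number within a diet, with circles, triangles and squares for pairs 1, 2 and 3 and a line for the mean of 3 pairs. The high-fat pairs lie above the low-fat pairs for each of the 4 genes, and Ccr7 is below 0 in all 6 pairs.

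The shift of the population difference from the low-fat to the high-fat diet was the measure that chose these genes and is described with no test. It was 2.19 ± 0.52 (SE) for Il21r, 1.30 ± 0.35 for Ptger4, 1.03 ± 0.33 for Jak2 and 0.74 ± 0.31 for Ccr7 on the log2 scale. Il21r had the largest shift of the 594 genes, and Ptger4, Jak2 and Ccr7 ranked 34th, 75th and 153rd by size. The median shift of all genes was 0.36, so that relative to it the shifts were 1.83, 0.94, 0.67 and 0.38. With each sample re-centred they were 1.86 ± 0.45, 0.97 ± 0.34, 0.70 ± 0.44 and 0.41 ± 0.45. Pair differences of the 2 diets did not overlap for any of the 4 genes, as for 24.1% of all 594 genes.

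Limma called 0 of 594 genes for this shift (0%), with 52 at an unadjusted p under 0.05 (8.75%). With mouse as a random block 7 genes were called (1.18%), each with a higher CD34- minus CD34+ difference on the high-fat diet. Outside the 4 genes these included the interferon response factor gene Irf1 at 1.23, and Nrp2, Ikbkb and Sirt1, whose shifts were 1.41, 1.35 and 1.34. Ordered by that fit's adjusted p, in which genes can tie, Il21r, Ptger4, Jak2 and Ccr7 ranked 2nd, 4th, 8th and 26th. This describes genes chosen on this contrast and supports nothing. Without the shallowest library and high-fat CD34+ replicate 2, 1 gene was called, and the shift of Il21r was 2.74 ± 0.48.

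**Figure D3:**
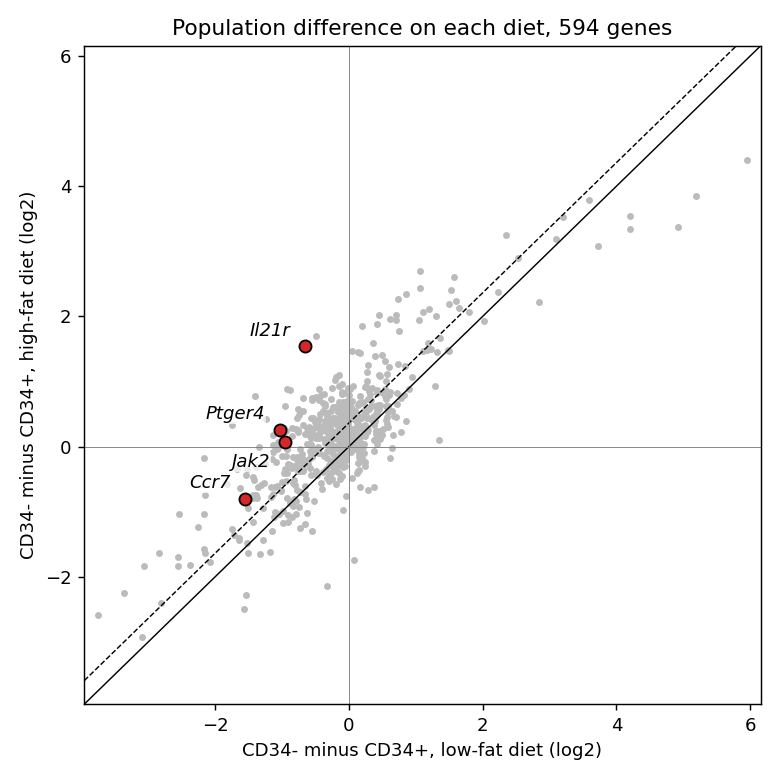
Each grey point is 1 of the 594 tested genes, with its log2 difference of CD34- minus CD34+ cells on the low-fat diet (horizontal axis) and on the high-fat diet (vertical axis). The solid line marks equal differences, the dashed line is raised by the median shift of 0.36, and Il21r, in red, lies farthest above the solid line.

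T and B cell markers, like Il21r, had their lowest levels in high-fat CD34+ cells, and NK cell markers were low in CD34+ cells of both diets. Of 18 T cell markers 9 were on the panel, and their summed linear level ran from 326 to 1344 in high-fat CD34+ samples and from 1402 to 2977 in low-fat CD34+ samples. It ran from 2230 to 6405 in low-fat CD34- and from 1686 to 5456 in high-fat CD34- samples. High-fat CD34+ cells were thus lowest for this list as for Il21r, while low-fat CD34+ cells, highest for Il21r, had a lower median sum (1488) than low-fat CD34- cells (2431). All 9 markers were above 0, with Foxp3 the lowest at 16 counts. All 9 had a lower mean in CD34+ cells of the high-fat diet, with a median difference of -1.36 against -0.01 over all genes. Limma called 0 of the 9, and 6 were at an unadjusted p under 0.05, as were 17.5% of all genes. Of 8 B cell markers 3 were on the panel, and their sum ran from 29.4 to 149.6 in high-fat CD34+ and from 205 to 289 in low-fat CD34+ samples. The sum of 9 NK cell markers had a median of 825 in high-fat CD34+ and 726 in low-fat CD34+ samples, and a median diet difference of 0.09 in these cells. The part of lymphocytes in the Il21r result was not tested. Averaged over the populations, limma called 3 of 4 macrophage, 3 of 6 fibroblast, 3 of 4 fat cell, 1 of 4 neutrophil, 2 of 3 endothelial and 0 of 3 mast cell markers higher on the high-fat diet, against 10.6% of all genes, and 0 of 6 epithelial markers were on the panel. With mouse as a random block the macrophage, fibroblast and endothelial calls became 2, 2 and 0. Their part in the diet differences was not tested either.

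Of the markers of migratory dendritic cells, in which Ccr7 is a defining gene, the 3 on the panel had summed levels that overlapped between all groups. Of 16 such markers other than Ccr7, Cd86, Irf8 and Irf4 were on the panel, and each had 116 counts or more in every sample. Their summed level ran from 2426 to 3160.5 in low-fat CD34-, from 2825 to 3843 in low-fat CD34+, from 2696 to 3655 in high-fat CD34- and from 2800 to 3388 in high-fat CD34+ samples. Limma called 0 of the 3 averaged over the diets, against 19% of all genes, with 2 at an unadjusted p under 0.05. With mouse as a random block 3 of 3 were called, 2 lower and 1 higher in CD34- cells, against 33.8% of all genes. Their sum thus joins genes of opposite direction and can hide differences of single genes. The median population difference of the 3 was -0.71 on the low-fat diet, against -0.14 over all genes. On the high-fat diet it was -0.12, against 0.215. Whether dendritic cells had a part in the Ccr7 result was not tested.

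Few other genes of interleukin-21 signalling were on the panel. Of 16 further gamma-chain cytokine and receptor genes 4 were present and 3 were tested, and averaged over the diets limma called 1 of 3, higher in CD34- cells, against 8.42% of all genes called higher. This was Il2rb, a receptor subunit of NK and T cells, at 3.37 ± 0.50 (SE, n = 3 per group, limma adjusted p = 0.000581). Il2ra, a subunit of the high-affinity receptor of interleukin-2, differed by 0.80 ± 0.28 in that contrast (adjusted p = 0.0634, and 0.0202 with mouse as a random block). It was higher in the CD34- cells of high-fat mice by 1.46 ± 0.40 (adjusted p = 0.0413), from 7.07 ± 0.33 (SD) in CD34+ to 8.53 ± 0.19 in CD34- cells. On that diet 8.92% of all genes passed, 6.9% as higher in CD34- cells. Low-fat levels of Il2ra were 7.62 ± 0.41 in CD34+ and 7.77 ± 0.94 in CD34- cells. Its shift between the diets was 1.32 ± 0.57 (limma adjusted p = 0.546). For diet, averaged over the populations, 0 of the 3 passed in either direction, with Il13 at -0.56 ± 0.37 (adjusted p = 0.382).

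Of 21 further JAK-STAT genes 8 were on the panel, and averaged over the diets 1 of 8 passed, against 19% of all genes. Ptpn6, a phosphatase that restrains cytokine receptors, was higher in CD34- cells by 0.60 ± 0.17 (limma adjusted p = 0.0221). Averaged over the populations 1 of 8 passed, against 10.9% of all genes. This was Stat3, the main transcription factor downstream of interleukin-21 and interleukin-6, which was higher on the high-fat diet by 0.64 ± 0.19 (adjusted p = 0.0477). That call ended with mouse as a random block (adjusted p = 0.109). Stat3 means were 9.58 ± 0.32 (SD) and 10.56 ± 0.11 in CD34- cells and 9.70 ± 0.50 and 10.01 ± 0.30 in CD34+ cells of the low-fat and high-fat diets. Jak1, the kinase bound by Il21r itself, was at 7.88 ± 0.61 and 8.23 ± 0.13 in CD34- and at 7.51 ± 0.53 and 7.76 ± 0.29 in CD34+ cells. The median population difference of the 8 genes was 0.28, against 0.02 over all genes, and that of Jak2 was of the opposite sign.

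Of 19 receptor genes that signal through Jak2, 5 were on the panel and 4 were tested. Limma called 2 of 4 averaged over the diets, both higher in CD34- cells, against 8.42% of all genes called higher. Il12rb2, a subunit of the interleukin-12 receptor, was higher by 1.94 ± 0.31 (SE, n = 3 per group, limma adjusted p = 0.000786), and Ifngr1, the ligand-binding subunit of the interferon gamma receptor, by 1.39 ± 0.22 (adjusted p = 0.000786). Both passed on each diet as well, on the low-fat diet with 9.76% of all genes, 2.69% as higher. For diet, 0 of the 4 passed in either direction in CD34+ cells, where 2.36% of all genes passed, or in CD34- cells, where 5.05% did. At an unadjusted p under 0.05, 0 of the 4 were counted in either population, against 17.5% and 21.9% of all genes. Jak2 itself, as given above, was lower in CD34- cells in 4 of 6 pairs.

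Of 23 further chemokine receptors and Ccr7 ligands 8 were on the panel and 7 were tested. Averaged over the diets 2 of 7 passed, both higher in CD34- cells and thus opposite in direction to Ccr7, against 8.42% of all genes called higher. They were Cxcr6, a receptor of activated T and NK cells, at 2.30 ± 0.46 (SE, limma adjusted p = 0.00404), and Cxcr3, a receptor for interferon-induced chemokines, at 0.98 ± 0.31 (adjusted p = 0.039). Ccl19, a ligand of Ccr7, had means of 5.73 ± 0.59 (SD) in low-fat CD34+ and 4.20 ± 0.68 in low-fat CD34- cells, from 33 to 56 and 3 to 37 counts, and passed with mouse as a random block but not without it. Averaged over the populations 0 of 7 passed for diet by limma, and 0 were at an unadjusted p under 0.05, against 26.1% of all genes. With the block 5 of 7 passed between the populations, 4 higher and 1 lower, against 33.8% of all genes. Of the prostaglandin E2 list, 1 of 18 further genes was on the panel, Ptgs2, the inducible cyclooxygenase gene, with a population difference of -0.02 ± 0.26 (adjusted p = 0.972) and a diet difference of 0.38 ± 0.26 (adjusted p = 0.403).

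**Figure D4:**
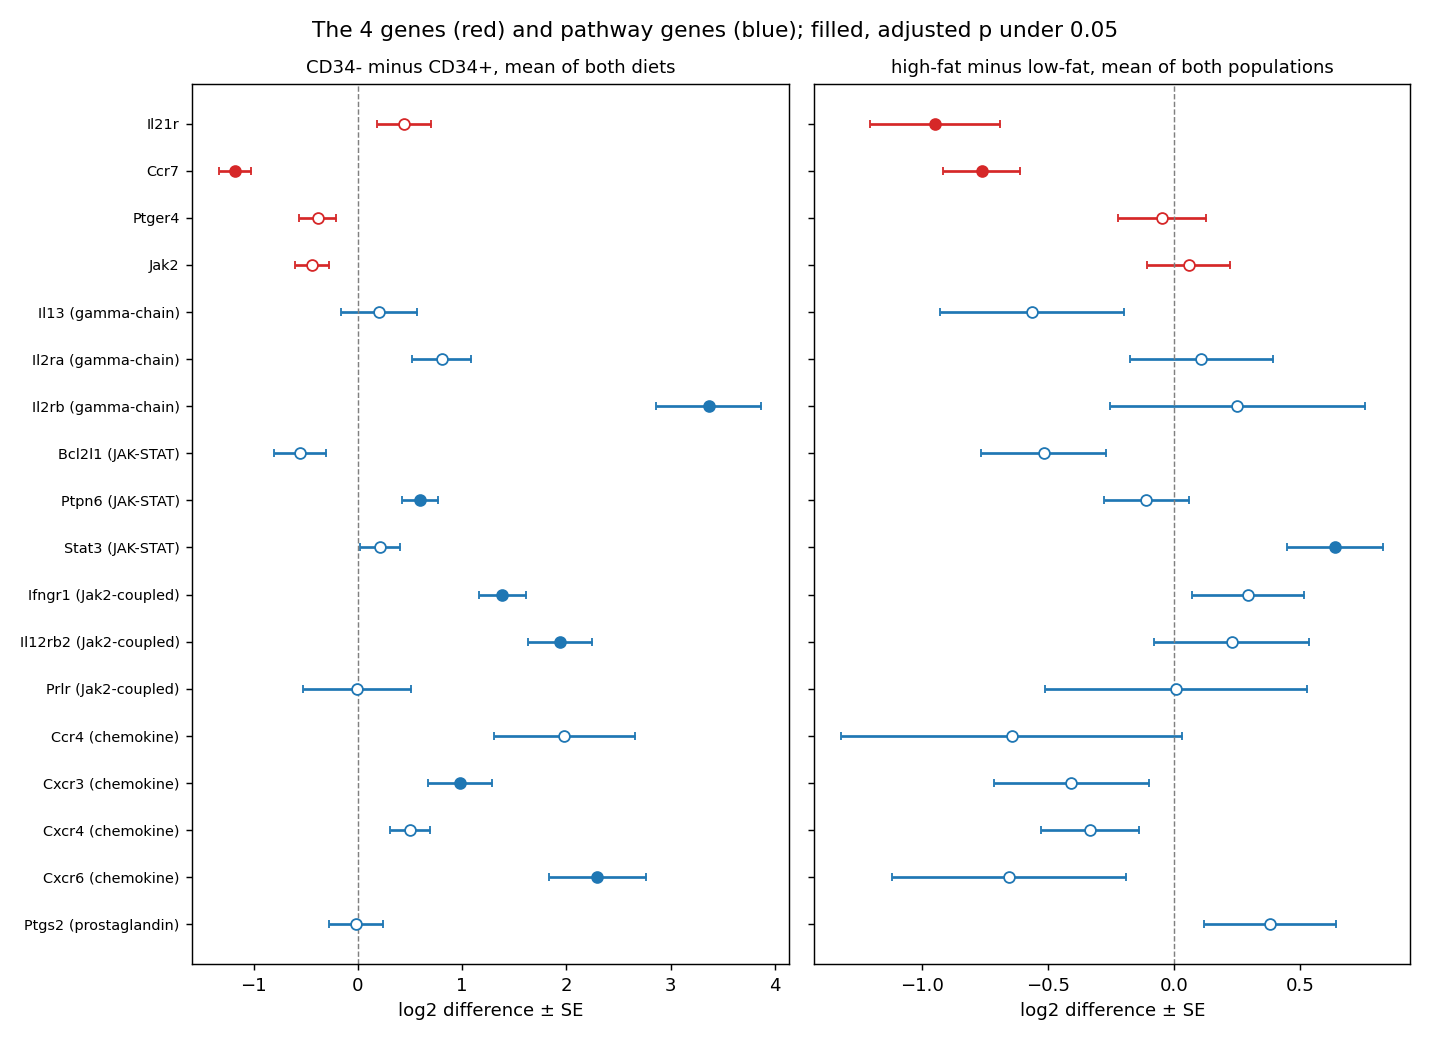
Log2 differences with SE (horizontal axes) are plotted for the 4 genes in red and in blue for the genes of the 5 pathway lists that passed a test or had their list's largest difference, for CD34- minus CD34+ cells averaged over the diets on the left and for high-fat minus low-fat diet averaged over the populations on the right. Filled points passed the adjusted threshold of 0.05, and on the right these are Il21r, Ccr7 and Stat3.

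The genes most like each of the 4 over the 12 samples, by Pearson's r of log2 values and with no test, differed from gene to gene. For Il21r the first 2 were the chemokine receptor gene Cxcr4 (r = 0.90) and the exchange factor gene Arhgef6 (0.89). Cxcr4 was at 10.76 ± 0.18 (SD) in low-fat CD34+ and 9.98 ± 0.36 in high-fat CD34+ cells. For Ccr7 they were Rnf152 (0.91), the catalase gene Cat (0.87) and the chemokine gene Cxcl16 (0.85). Cxcl16 was at 10.16 ± 0.37 in low-fat CD34+ and 8.99 ± 0.37 in low-fat CD34- cells. For Ptger4 they were Gnb4, of a G protein beta subunit (0.88), F11r, of a junction protein (0.85), and Gbp3, of an interferon-induced GTPase (0.84). For Jak2 they were Traf6, of an adaptor of Toll-like receptor signalling (0.94), the NF-kB subunit gene Relb (0.86) and the thioredoxin gene Txn1 (0.85). Relb was at 10.49 ± 0.67 in low-fat CD34+ and 9.08 ± 0.52 in low-fat CD34- cells. Among the 4 genes themselves, r was 0.79 for Ptger4 and Jak2, 0.58 for Ccr7 with either of them, and 0.50, 0.30 and 0.23 for Il21r with Ptger4, Jak2 and Ccr7. These correlations share libraries, group structure and depth over 12 samples.

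The authors deposited 4 tables of genes they selected, and the 4 genes fell into different ones. The authors' deposited table for the populations on the low-fat diet lists Ccr7, Ptger4 and Jak2 among 31 genes, and the authors' deposited table for the high-fat diet lists Il21r among 135. The authors' deposited table for diet in CD34+ cells lists Il21r and Ccr7 among 7 genes, and the authors' deposited table for diet in CD34- cells lists Jak2 among 117. Their entries are gene-centred values of the same samples, so they repeat the levels given above.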

How the data were processed

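Normalized values of 760 genes in 12 samples were used as the authors deposited them, on a log2 scale. Undoing the log2 and 1 scale constant per sample gave whole numbers (98.0% to 99.6% of values within 0.1), which served as recovered counts. The basis of that constant is not given in the sources used. The authors' further tables hold, per the file headers, gene-centred log2 values and the authors' cluster label, a deposited value of unit other that entered no test. Genes were tested if 3 or more samples reached a linear value of 20, which left 594.

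A linear model with 4 group means was fitted to the 12 samples in limma 3.58.1 under R 4.3.3 (statmod 1.5.0), with a mean-variance trend. Tests were two-sided with Benjamini-Hochberg adjustment over all tested genes at 0.05. Il21r, Ccr7, Ptger4 and Jak2 were tested on the population and diet differences averaged over the other factor, which are orthogonal to the contrast that chose them but share its estimate of spread. Other differences of these genes are described with SE. With 3 samples per group, permutations of single genes were not used.

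The 4 genes and the lists were chosen with earlier results of these data known, so no result here is independent of them. Named genes were the 4, Cd34 and Ptprc, the 3 most correlated genes of each, and per list up to 4 passing genes or else the largest difference. Cd14, Cd163, Cd68, Foxp3, Jak1, Ccl19 Irf1, Nrp2, Ikbkb and Sirt1 were named after their values were seen. Some genes that these rules select are not reported here.

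Same-numbered samples of a diet deviated together from their group means (r 0.306 to 0.434, against -0.375 to 0.143 for other numbers). The number, which the labels repeat within a diet, was therefore used as a random block in an alternative (consensus correlation 0.448). It was taken as the mouse, though shared processing cannot be told apart from a shared mouse. No 2 replicates were copies of 1 library (lowest chi-square over its degrees of freedom 15.1). The labels do not say which sample came from which mouse, so p-values measure the spread between these samples. The model was also run on simulated data with independent samples. That run cannot show how the tests behave when same-numbered samples are correlated, as they are here. Alternatives covered the filter, scaling, trend, block and each sample left out. The 2 libraries left out together and the block with re-centring were added after the data were seen.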

Additional observations from a re-analysis of the deposited data

Results flagged for a closer look

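The CD34- minus CD34+ difference of Il21r was higher on the high-fat than on the low-fat diet by 2.19 on the log2 scale, and that of Ptger4 by 1.30. Both were flagged as differing between the diets by the fit with the replicate number as a block. That fit called 1.18% of all genes for this shift, against 0% in the main fit. As this contrast chose both genes, the values are a description and not a test, and the flag supports nothing.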

How the results depend on the processing

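With the replicate block, that is the number taken as the mouse, Ptger4 (-0.39) and Jak2 (-0.44) passed between the populations. Il21r (-0.95) no longer passed for diet. Counts became 201 and 31 genes for the averaged population and diet differences (main 113 and 65), 131 and 142 for populations on the low-fat and high-fat diet (58 and 53), and 7 for the shift (0). The block changed no other call of the 4 genes on the averaged differences, the contrasts on which they were tested. With each sample re-centred, Ptger4 passed between the populations (-0.50), counts were 40 for averaged diet and 17 for diet in CD34- cells (30), and the shifts of Ccr7, Ptger4 and Jak2 were 0.41, 0.97 and 0.70. With quantile normalization the shifts of Il21r and Ptger4 were 1.69 and 0.91, and 7 and 13 genes passed for diet in CD34+ (14) and CD34- cells. With no trend, 35 genes passed on the high-fat diet and 0 for diet in CD34+ cells. Without the 2 doubted libraries, 98, 91, 54, 49 and 1 genes passed for averaged diet, populations on the high-fat diet, diet in CD34+ and in CD34- cells and the shift, and the shift of Il21r was 2.74. With block and re-centring, Ptger4 (-0.50) and Jak2 (-0.55) passed, the shifts of Ccr7, Ptger4 and Jak2 were 0.41, 0.97 and 0.70, and counts were 191, 27, 127, 122 and 17 for averaged population, averaged diet, populations on the low-fat and high-fat diet and diet in CD34- cells. The cause of these changes was not tested.

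Leaving out 1 sample, averaged diet counts ran from 36 to 83, populations on the low-fat and high-fat diet from 26 to 69 and 0 to 78, and diet in CD34+ and CD34- cells from 0 to 29 and 4 to 43. The averaged diet difference of Il21r ran from -1.09 to -0.77 and the averaged population difference of Jak2 from -0.53 to -0.34, passing without low-fat CD34+ replicate 3 (limma adjusted p = 0.0351). Shifts ran from 1.92 to 2.55 for Il21r, 1.11 to 1.52 for Ptger4, 0.84 to 1.23 for Jak2 and 0.52 to 0.88 for Ccr7. Both averaged calls of Ccr7 held in all 20 alternatives (limma adjusted p of 0.00136 or less for population and 0.0481 or less for diet). With 3 samples per group and 138 counts at the least for the 4 genes, the spread between samples was larger than the counting SD in all groups except both CD34- groups of Ccr7.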

Other observations

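The 3 high-fat CD34- values of Ccr7 spanned 0.01 on the log2 scale although the libraries held 835 to 1861 counts of it, and the low-fat CD34- values had an SD of 0.03 against a counting SD of 0.05. The first was the lowest SD of 594 genes in its group, and in the second group 1 gene had a lower one. With each sample re-centred on its median the SDs were 0.09 and 0.32. Ptger4 went the other way in low-fat CD34- cells, from an SD of 0.30 as deposited to 0.05 re-centred.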
